A study of Rattus norvegicus with 21 samples.

Results

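The dentate gyrus of stressed rats given imipramine was compared with that of rats that went through the same stress without a drug. The members were taken from the sample titles: the 3 animals named for imipramine treatment, and the 3 animals named for unpredictable chronic mild stress with no drug, 6 of the 21 arrays of the series. The imipramine animals went through 6 weeks of unpredictable mild stress and received imipramine at 10 mg/kg in saline, by daily injection into the abdomen during the last 2 weeks. The stress animals went through the same 6 weeks and are labelled as untreated. Levels are given beside them for stressed rats given fluoxetine (10 mg/kg in water), tianeptine (10 mg/kg in saline) or agomelatine (40 mg/kg), and for untreated control rats without stress, 3 animals each. All were wild-type male Wistar rats, 2 months old. The labels call the samples biological replicates, apart from a repeat array of each control animal, which they call a technical replicate. The labels describe injections for the drug groups only, so the drug and the daily injection cannot be told apart in any difference from stress alone.

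Imipramine is a tricyclic antidepressant that blocks the reuptake of noradrenaline and serotonin and also binds histamine, muscarinic and adrenergic receptors. The dentate gyrus is the input field of the hippocampus. Its granule neurons take up cortical input, new ones are added in adult life, and its cells carry both corticosteroid receptors. Immediate early genes there follow neuronal activity, and their products, such as the transcription factor Npas4, drive further genes of synaptic change.

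Values are log2 expression values of Affymetrix probe sets, so a difference of 1 is a 2-fold difference. Of 14506 genes with a probe set of their own name, 10804 had a mean over the 18 animals at or above a log2 value of 7.17 and were tested. The median SD between animals over these genes was 0.063 in imipramine and 0.082 in stress, and arrays correlated at 0.970 to 0.996. Over the tested genes the array median was 9.23 to 9.27 in the imipramine animals and 9.27 to 9.35 in the stress animals, with stress animal 3 the highest. Prox1 and Calb1, defining markers of granule neurons, were above the filter level in all 6 animals, Prox1 at 11.54 to 11.58 with imipramine and 11.34 to 11.60 in stress, and Calb1 at 10.79 to 10.99 with imipramine and 10.57 to 10.81 in stress. Markers of tissue beside the dentate gyrus were high in single animals. Ttr, a defining gene of the choroid plexus, was at 7.30, 8.09 and 7.01 with imipramine and at 11.77, 7.13 and 8.27 in stress, so stress animal 1 stood apart, and the difference of -1.59 was -0.24 without that animal. Stress animal 3 stood apart for Htr2c and for markers of interneurons and of pyramidal neurons of the CA fields.

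No named gene passed the test between imipramine and stress (limma, 0 of 10804 genes at a Benjamini-Hochberg adjusted p under 0.05, 0%; smallest adjusted p = 0.330). At an unadjusted p under 0.05 there were 1081 genes, 357 higher with imipramine (3.3%) and 724 lower (6.7%). The animals of both groups did not overlap for 2133 genes (19.7%), 774 higher (7.16%) and 1359 lower (12.6%). The median difference was -0.023 and 59.6% of the genes lay below 0. This balance depended on the scale of the arrays. Setting the array medians equal adds the same amount to every difference. The median over all tested genes was then 0.022, with 6268 genes above 0 and 4536 below. Under that setting each list below keeps its distance from the median of all tested genes. With equal array medians the split at an unadjusted p under 0.05 was 770 higher and 284 lower, and with the arrays quantile-normalised once more it was 466 and 643. The number also depended on single animals: without stress animal 3 there were 561 such genes, 268 higher and 293 lower, and without imipramine animal 2 there were 627, 180 higher and 447 lower. The median 95% interval of a gene reached 0.174 to either side of its difference, and an exact permutation test on 3 against 3 animals cannot give a two-sided p below 0.1. Whether a gene below is higher or lower is therefore a description of 6 animals. The 12 genes with the smallest p in each direction, among those without overlap, were chosen by their p and are shown by animal. None of them was past the threshold, and nothing is read from their number.

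**Figure D1:**
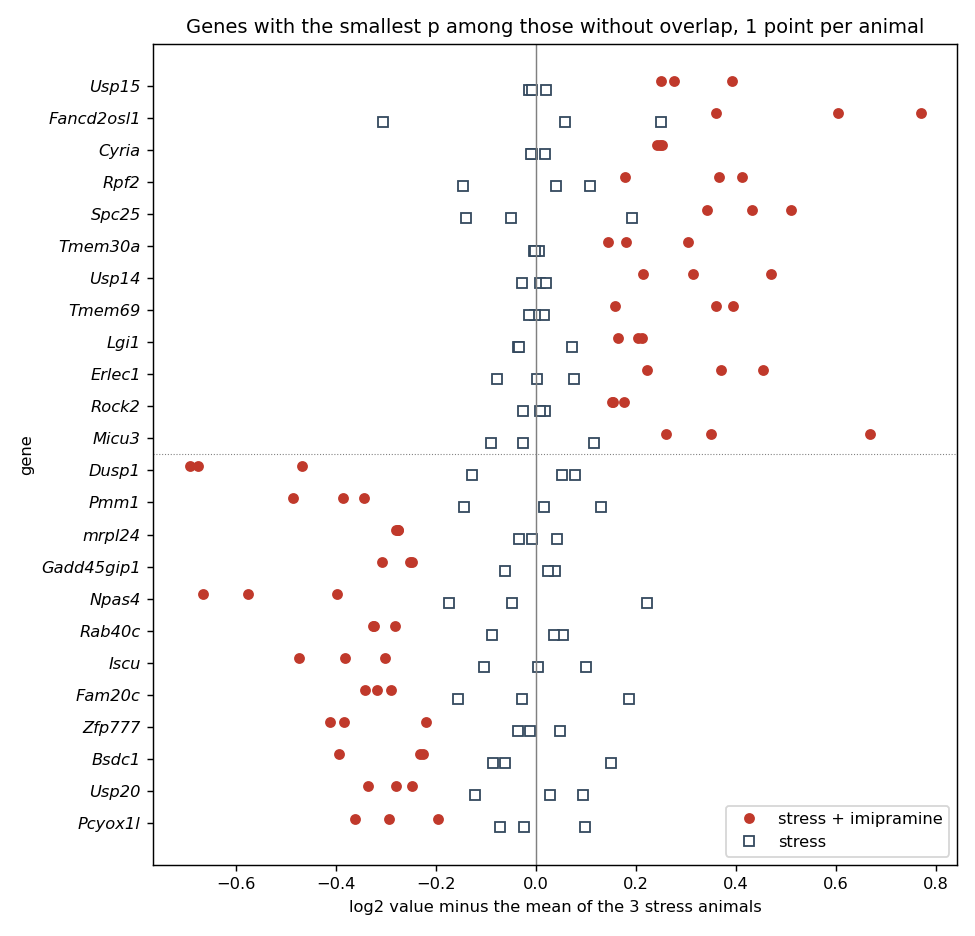
Log2 value of each animal minus the mean of the 3 stress animals (horizontal axis) for the 12 genes higher and the 12 genes lower with imipramine with the lowest p of those whose groups did not overlap. Red circles are imipramine animals and open squares stress animals. Dusp1 and Npas4 stand farthest to the left, and the open squares of Fancd2osl1 are the most widely spread of the higher genes.

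Probe sets without a gene name gave another picture. When all 21910 probe sets above the filter were fitted together, named or not, 20 passed (0.0913%), 18 higher and 2 lower with imipramine, and none of the 20 has a gene name in the platform annotation used here. Of these 20, 16 carry neighbouring identifiers from 10722421 to 10722481, 10 of them with identical values in every animal, so that they are 7 distinct measurements. These probe sets were singled out after their values were seen. Probe set 10722465 was at 12.90, 12.77 and 12.92 in the imipramine animals and at 11.91, 11.74 and 12.44 in the stress animals, a difference of 0.83 ± 0.12 (SE; limma over all probe sets, adjusted p = 0.0235). Probe set 10722481 was at 13.12, 12.93 and 13.15 with imipramine and at 12.34, 12.34 and 12.67 in stress (0.62 ± 0.092, adjusted p = 0.0235). In both the groups did not overlap, and stress animal 3 lay closest to the imipramine animals. The shared values of the 10 identical probe sets were 13.59, 13.50 and 13.59 with imipramine and 13.30, 13.28 and 13.26 in stress. The difference was 0.28 ± 0.051 (limma over all probe sets, adjusted p = 0.0461). The adjustment counted these 10 probe sets as 10 separate tests, which lowers adjusted p-values near the threshold. Probe set 10722471 had the same adjusted p. Whether these calls hold with identical probe sets counted once was not tested.

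Within that stretch of identifiers the array holds 31 probe sets, 28 above the filter with 18 distinct sets of values. All 18 had a difference above 0, with a median of 0.54 and a range of 0.12 to 1.87, and 15 had no overlap between the groups. Of all probe sets 8.45% did not overlap and were higher. The stretch was bounded by called probe sets, and the 7 called measurements are among the 15. Nothing is therefore read from the number 15 beside that share. Whether the 18 read independent transcripts was not tested. The mean of the 18, set against each one's mean over the 18 animals, was 0.17, -0.02 and 0.24 with imipramine and -0.48, -0.55 and -0.31 in stress. It was 0.15, 0.11 and 0.07 with fluoxetine, 0.18, 0.30 and 0.43 with tianeptine and 0.07, -0.05 and 0.04 with agomelatine, and 0.02, -0.14 and -0.25 in controls. The 3 stress animals were the lowest of the 18. Imipramine against fluoxetine gave a median of 0.046 over the 18, imipramine against tianeptine -0.157 and imipramine against control 0.253, and none of the 18 passed the test in any of these. The calls depended on single animals: 4 probe sets passed without imipramine animal 2, and 0 without imipramine animal 1 or 3 or without stress animal 1 or 2. Without stress animal 3, 25 passed, 10 higher and 15 lower, 8 of them in the block, and 17 of the 18 distinct members lay above 0. The median over the block stayed between 0.49 and 0.66 whichever animal was left out. In the fit of the 6 animals alone 2 probe sets passed, neither of them in this block.

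**Figure D2:**
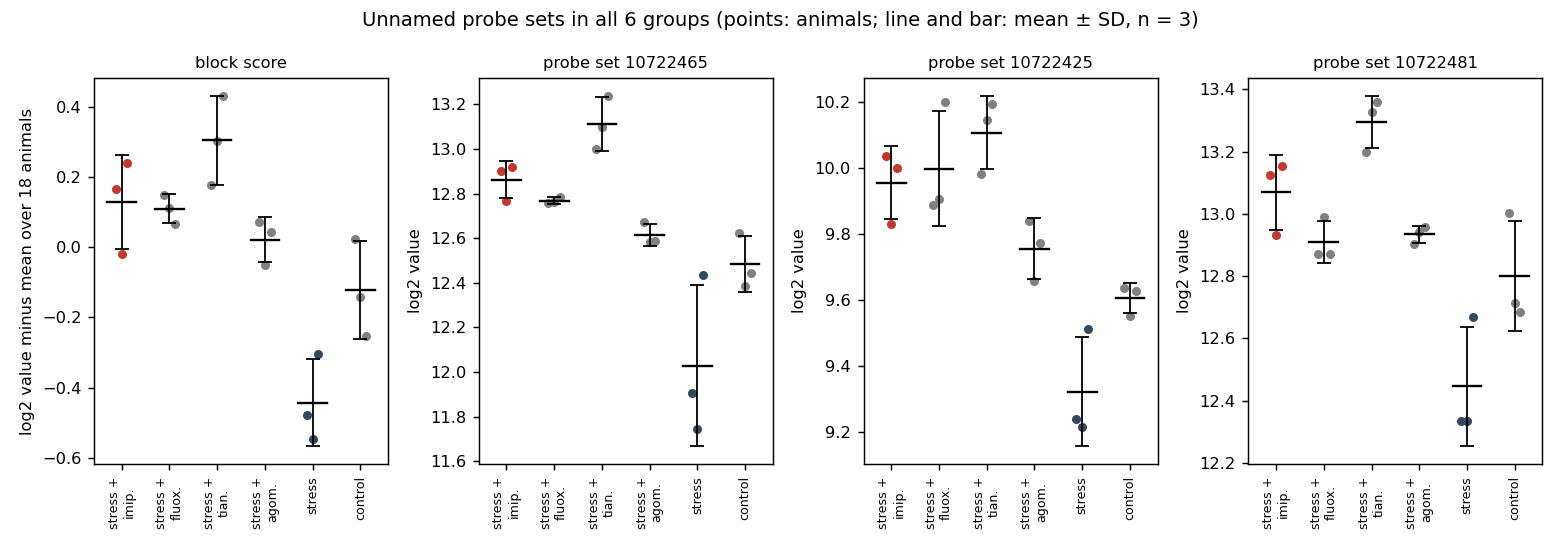
Left: mean over the 18 distinct probe sets of the block after each is set to its own average across the 18 animals, by animal; right: log2 values of 3 of its probe sets. Points are animals (n = 3 a group), lines means and bars SD. The stress animals are the lowest of the 6 groups in the block score and the imipramine animals overlap those of the other 3 drugs.

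Activity-dependent genes were read as immediate early transcription factors and the effectors that act beside them. Dusp1, a phosphatase that switches off MAP kinases and is itself induced within minutes by activity and by corticosteroids, had the largest difference among the 12 lower genes. It was at 9.09, 9.11 and 9.32 with imipramine and at 9.86, 9.66 and 9.84 in stress, a difference of -0.61 ± 0.11 (SE; 95% interval -0.85 to -0.38; adjusted p = 0.330). The groups did not overlap, and the difference stayed between -0.69 and -0.57 whichever animal was left out. The mean level was 9.22 ± 0.23 with fluoxetine, 9.10 ± 0.079 with tianeptine, 9.49 ± 0.23 with agomelatine and 9.29 ± 0.060 in controls (SD, n = 3 each), so the stress animals had the highest mean of the 6 groups. Imipramine differed from control by -0.12 and from fluoxetine by -0.043 (limma, adjusted p = 0.855 and 0.931). The start of the gene is shown because its promoter is known to answer cyclic AMP. It spans chr10:17184603-17184902 on the plus strand of GRCr8, from RefSeq, 250 bases before the start and 50 after. The full cyclic AMP response element TGACGTCA and a separate stretch TGACG of that element are in capitals.
Dusp1: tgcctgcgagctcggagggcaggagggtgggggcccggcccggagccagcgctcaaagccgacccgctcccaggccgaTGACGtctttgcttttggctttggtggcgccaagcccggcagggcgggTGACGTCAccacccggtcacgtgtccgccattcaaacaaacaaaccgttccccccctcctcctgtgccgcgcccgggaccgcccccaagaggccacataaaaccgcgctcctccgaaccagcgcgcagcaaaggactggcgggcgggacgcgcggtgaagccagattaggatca
The full element, a palindrome that reads the same on both strands, begins at position -124 there. It occurs in 1.83% of all 33469 RefSeq promoters of this length and in 2.92% of the 8548 tested genes that have one. That shorter stretch, searched as TGACG on both strands and counted also inside the full element, occurs in 21.2% and 30.8% of them. A promoter was found for 19 of the 24 genes plotted by animal, and Iscu was the only other one of them with the full element.

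Npas4, a transcription factor that calcium entry induces in neurons, was at 7.82, 7.91 and 8.09 with imipramine and at 8.71, 8.32 and 8.44 in stress (-0.55 ± 0.12; 95% interval -0.81 to -0.29; adjusted p = 0.330). The groups did not overlap, and the controls averaged 8.34 ± 0.12, closer to stress than to imipramine. Nr4a1, an orphan nuclear receptor of the same early wave, was at 8.18, 8.38 and 8.23 with imipramine and at 8.39, 8.50 and 8.96 in stress. Its difference of -0.35 ± 0.13 was -0.18 without stress animal 3. Junb, a subunit of the AP-1 factor, differed by -0.17 ± 0.077 without overlap. Of 27 immediate early factors 22 were measured. Of these 16 lay below 0 with a median of -0.066. At an unadjusted p under 0.05, 3 were lower and none was higher (6.7% and 3.3% of all tested genes). Without overlap 4 were lower and none higher (12.6% and 7.16% of all tested genes). Fos and Egr1, the factors most often used as activity markers, differed by -0.12 and -0.051. The median of the list was -0.021 with equal array medians (14 of 22 below 0) and -0.011 without stress animal 3.

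Among 25 activity-regulated effectors 15 lay below 0 with a median of -0.031, which was 0.014 with equal array medians. Members stood on both sides: 2 were higher and 3 lower at an unadjusted p under 0.05 (3.3% and 6.7% of all tested genes). Homer1, a scaffold of metabotropic glutamate receptors, was at 9.55, 9.73 and 9.61 with imipramine and at 9.22, 9.31 and 9.46 in stress (0.30 ± 0.11). Ptgs2, the inducible cyclooxygenase, was 0.21 ± 0.086 higher, also without overlap, and 0.14 without stress animal 3. Arc, which removes AMPA receptors from synapses, was at 8.997, 9.43 and 9.29 with imipramine and at 9.39, 9.52 and 9.78 in stress (-0.33 ± 0.14, and -0.21 without imipramine animal 1), and the groups overlapped. Gadd45b, linked to DNA demethylation after activity, differed by -0.24 ± 0.078 without overlap. Of all 10 MAP kinase phosphatases measured 7 lay below 0 and 3 above. Without overlap 3 were lower and 1, Dusp9, higher (0.14), against 12.6% and 7.16% of all tested genes. Dusp10 was at 8.37, 8.40 and 8.59 with imipramine and at 8.76, 8.73 and 8.73 in stress, without overlap. Dusp6 was at 8.97, 8.98 and 8.98 with imipramine and at 8.90, 9.33 and 9.50 in stress, with overlap, and its difference of -0.27 was -0.14 without stress animal 3.

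**Figure D3:**
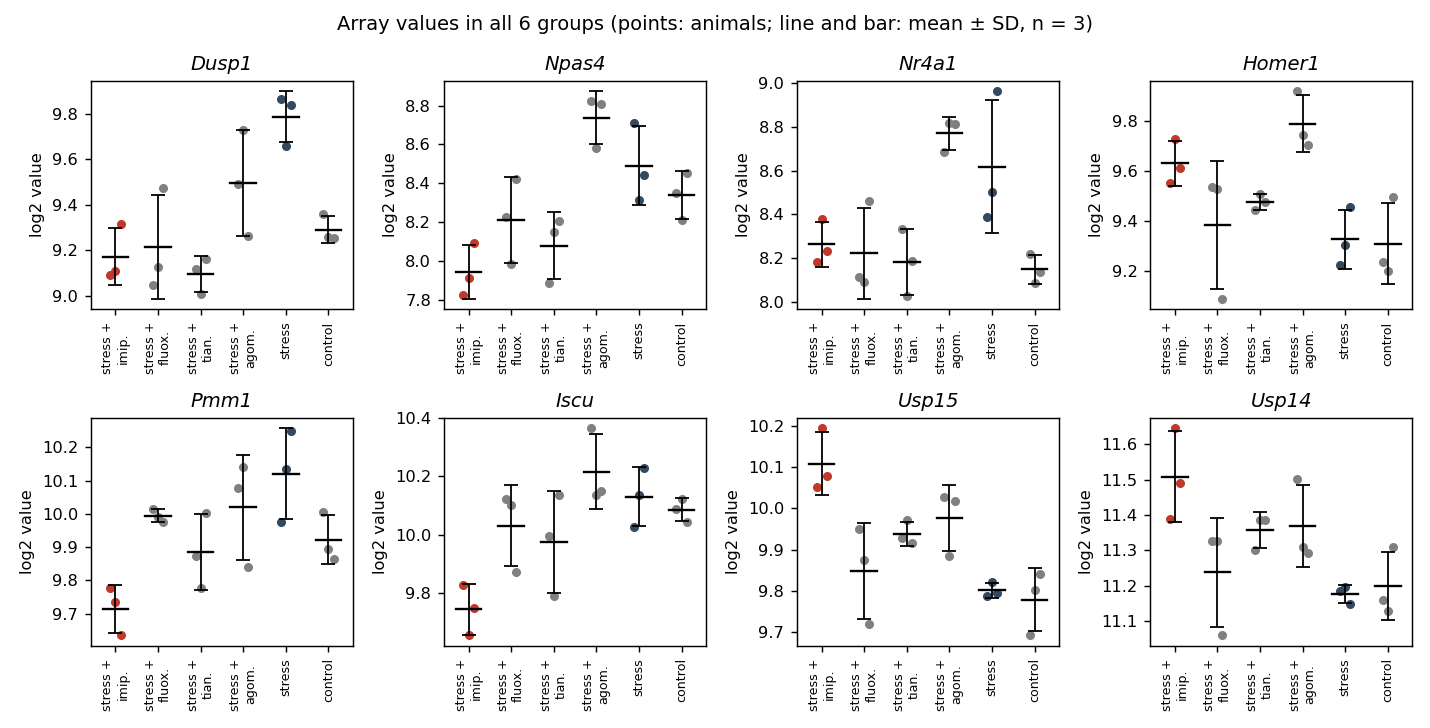
Log2 values of 8 genes in the 6 groups. Points are animals, lines means and bars SD (n = 3 a group), with imipramine at the left. Dusp1 is highest in stress, Npas4 and Nr4a1 are also high with agomelatine, and the imipramine mean is the lowest for Pmm1 and Iscu and the highest for Usp15 and Usp14.

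Genes that corticosteroid receptors induce lay mostly lower. Of 27 such genes 22 were measured, and 16 were below 0 with a median of -0.062. At an unadjusted p under 0.05, 2 were lower and none higher (6.7% and 3.3% of all tested genes). The 2 were Dusp1 and Ddit4, an inhibitor of the mTOR pathway, which was at 9.36, 9.20 and 9.24 with imipramine and at 9.54, 9.48 and 9.47 in stress (-0.23 ± 0.081). In all 5 members were lower without overlap and none higher (12.6% and 7.16% of all tested genes). Fkbp5 and Sgk1 overlapped between the groups. Fkbp5, the cochaperone that lowers the affinity of the glucocorticoid receptor, was at 10.21, 9.86 and 10.16 with imipramine and at 10.07, 10.21 and 9.79 in stress, with overlap. Sgk1, a kinase induced by corticosteroids, differed by -0.063 (95% interval -0.20 to 0.075). The median of the list was -0.0175 with equal array medians (13 of 22 below 0) and -0.009 without stress animal 1.

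Of the receptors themselves, Nr3c1, the glucocorticoid receptor, differed by 0.0050 (95% interval -0.13 to 0.14) and Nr3c2, the mineralocorticoid receptor, by 0.092 (-0.036 to 0.22). Of the 13 measured genes for these receptors, their cochaperones and the CRH and vasopressin systems, 8 lay above 0 with a median of 0.037. Without imipramine animal 1 that median was -0.011. Fkbp4, a cochaperone that helps the receptor into the nucleus, was at 9.82, 9.72 and 9.83 with imipramine and at 9.99, 10.12 and 10.02 in stress (-0.25 ± 0.083), without overlap. Ptges3, the HSP90 cochaperone p23, differed by 0.17 ± 0.074 and Crhbp, which binds corticotropin-releasing hormone, by -0.24 ± 0.11, both with overlap, and the differences were 0.093 for Ptges3 without stress animal 2 and -0.14 for Crhbp without stress animal 3.

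None of the measured genes for proteins that imipramine binds had an unadjusted p under 0.05. Of 16 transporters and receptors 12 were measured. The serotonin transporter Slc6a4 is on the array below the filter. Of the 12, 10 lay below 0 with a median of -0.053, which was 0.025 without stress animal 3, and no member was free of overlap. Hrh1, the histamine receptor behind the sedation seen with tricyclics, differed by -0.079 (95% interval -0.22 to 0.061), and Chrm1, the main muscarinic receptor of the hippocampus, by -0.063 (-0.19 to 0.062).

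The median of the serotonin receptors changed sign with 1 animal. Of 12 measured, 8 lay below 0 with a median of -0.112, and that median was 0.028 without stress animal 3. Htr2c, which the choroid plexus and ventral hippocampus express strongly, was at 7.44, 7.40 and 7.19 with imipramine and at 7.93, 7.14 and 9.90 in stress. Its difference of -0.98 was -0.19 without stress animal 3. Htr1a, the receptor through which serotonin inhibits granule neurons, differed by 0.018 (95% interval -0.18 to 0.22). Htr1d was the only member with an unadjusted p under 0.05, at 7.83, 7.82 and 7.88 with imipramine and at 7.34, 7.67 and 7.75 in stress (0.26 ± 0.10, and 0.13 without stress animal 1), without overlap. Among 9 measured adrenergic receptors and monoamine-degrading enzymes, Adra2c, an inhibitory adrenergic receptor, was at 9.27, 9.35 and 9.28 with imipramine and at 9.45, 9.59 and 9.74 in stress (-0.29 ± 0.10). It was the only one of the 9 without overlap. Maoa, which breaks down serotonin and noradrenaline, differed by 0.057 (95% interval -0.059 to 0.17). The median of the 9 was 0.015, and -0.076 without stress animal 1.

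Cyclic AMP signalling and neurotrophins are the pathways most often named for antidepressants. Of 33 genes of cyclic AMP signalling and CREB, 18 lay below 0 with a median of -0.001 (0.044 with equal array medians). At an unadjusted p under 0.05, 2 were higher and 2 were lower (3.3% and 6.7% of all tested genes). The 2 lower ones were adenylate cyclases: Adcy3 was at 9.04, 9.15 and 9.06 with imipramine and at 9.15, 9.36 and 9.54 in stress, and Adcy5 at 9.98, 9.87 and 9.90 with imipramine and at 10.07, 10.06 and 10.26 in stress. The higher ones were Pkia, an inhibitor of protein kinase A (0.22 ± 0.081), and Pde10a, which degrades cyclic nucleotides (0.18 ± 0.083). Adcy3 differed by -0.27, and by -0.17 without stress animal 3. Creb1 itself differed by 0.14 ± 0.077 without overlap, and by 0.068 without stress animal 1. Bdnf, the neurotrophin of activity-dependent plasticity, was at 8.89, 9.20 and 8.94 with imipramine and at 8.86, 8.72 and 8.72 in stress, a difference of 0.24 ± 0.12 (95% interval -0.00070 to 0.49; adjusted p = 0.502). The groups were apart by a narrow margin, and the difference was 0.15 without imipramine animal 2. Its receptor Ntrk2 differed by -0.034 (-0.15 to 0.081) and Ntf3, neurotrophin-3, by 0.22 ± 0.12 with overlap, and by 0.14 without stress animal 3. None of the 22 measured neurotrophins, growth factors and receptors had an unadjusted p under 0.05, and their median was -0.026 (0.019 with equal array medians).

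Genes for proteins of the cytosolic ribosome, which translates messenger RNA, lay mostly lower. Of 82 genes 70 were measured, 60 lay below 0 with a median of -0.097, 14 were lower at an unadjusted p under 0.05 and none higher (6.7% and 3.3% of all tested genes), and 19 were lower without overlap and 1 higher (12.6% and 7.16% of all tested genes). The median stayed below 0 after a further quantile normalisation (-0.088) and whichever animal was left out (-0.138 to -0.077). With equal array medians, which add the same amount to every difference, it was -0.053 (50 of 70 below 0). All tested genes then had a median of 0.022. The list score, in which each gene is first set to its own average across the 18 animals, was -0.025, -0.106 and -0.084 with imipramine and -0.049, 0.068 and 0.075 in stress, so stress animal 1 lay among the imipramine animals. Several of these genes have many near-identical copies in the genome, and a probe set may read more than 1 of them.

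Rpsa, the laminin-binding protein of the small subunit, was at 9.76, 9.82 and 9.70 with imipramine and at 9.87, 10.11 and 10.20 in stress (-0.30 ± 0.084; adjusted p = 0.459), and its second probe set differed by -0.15. Rps14 was at 9.96, 9.88 and 9.85 with imipramine and at 10.11, 10.22 and 10.15 in stress (-0.26 ± 0.073), and its other 2 probe sets differed by -0.24 each. Both were without overlap. Rpl41, the smallest ribosomal protein, was at 12.20, 12.14 and 12.17 with imipramine and at 12.38, 12.39 and 12.30 in stress (-0.19 ± 0.065). Rpl32 was at 12.54, 12.37 and 12.35 with imipramine and at 12.54, 12.70 and 12.71 in stress, where imipramine animal 1 and stress animal 1 met. Transcripts of ribosomal proteins typically begin with a run of pyrimidines, through which growth signals control their translation. The bases around the start of 3 of these genes are shown for that reason, 30 before and 30 after it. The longest run of C and T within this window is in capitals. The windows are chr8:128728849-128728908 (plus strand) for Rpsa, chr18:56498230-56498289 (plus strand) for Rps14 and chr7:1563468-1563527 (minus strand) for Rpl41, all from RefSeq on GRCr8.
Rpsa: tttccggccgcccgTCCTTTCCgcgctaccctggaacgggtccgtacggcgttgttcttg
Rps14: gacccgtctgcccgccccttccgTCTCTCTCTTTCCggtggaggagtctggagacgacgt
Rpl41: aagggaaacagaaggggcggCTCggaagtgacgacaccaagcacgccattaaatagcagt
A promoter was found for 60 members of the list, and 50 of these (83.3%) held a run of at least 8 pyrimidines in the window, against 23.2% of all promoters and 21.5% of those of tested genes. Rpl41 was not among the 50, with a longest run of 3.

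Translation factors, which work beside the ribosome, had members on both sides. Of 36 measured, 23 lay below 0 with a median of -0.043 (0.002 with equal array medians). At an unadjusted p under 0.05, 5 were higher and 4 lower (3.3% and 6.7% of all tested genes). Eif5, which triggers GTP hydrolysis at the start codon, was at 11.54, 11.75 and 11.68 with imipramine and at 11.40, 11.35 and 11.41 in stress (0.27 ± 0.076). Eif3e differed by 0.27 ± 0.10, while Eif3k, another subunit of the same initiation factor, differed by -0.24 ± 0.069, both without overlap, and Eif3e by 0.16 without imipramine animal 2. Eef2, the elongation factor that moves the ribosome along, differed by -0.20 ± 0.075 with overlap. Rpf2, which assembles the large subunit in the nucleolus, was among the 12 higher genes, at 9.45, 9.64 and 9.68 with imipramine and at 9.38, 9.31 and 9.12 in stress (0.32 ± 0.072).

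Mitochondrial groups lay lower by smaller amounts. Of 72 genes for proteins of the mitochondrial ribosome 49 lay below 0 with a median of -0.051. At an unadjusted p under 0.05, 9 were lower and none higher (6.7% and 3.3% of all tested genes). Without overlap 11 were lower and 3 higher (12.6% and 7.16% of all tested genes). With equal array medians the median was -0.006, and without stress animal 3 it was -0.016. mrpl24, one of its large-subunit proteins, was at 8.69, 8.69 and 8.68 with imipramine and at 8.93, 8.96 and 9.01 in stress (-0.28 ± 0.059; adjusted p = 0.330). Gadd45gip1, which is also bound to that ribosome, was at 8.94, 8.89 and 8.95 with imipramine and at 9.13, 9.23 and 9.22 in stress (-0.27 ± 0.059). In both the 3 imipramine values lay within a narrow band below every stress value.

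Of 69 subunits of the respiratory chain and ATP synthase 54 lay below 0 with a median of -0.074 (-0.030 with equal array medians). At an unadjusted p under 0.05, 7 were lower and 1 higher (6.7% and 3.3% of all tested genes). Without overlap 17 were lower and 2 higher (12.6% and 7.16% of all tested genes). Ndufb8 and Ndufb10, subunits of complex I, differed by -0.33 ± 0.10 and -0.22 ± 0.069. Atp5mc2, which forms the rotating ring of ATP synthase, was at 11.61, 11.56 and 11.72 with imipramine and at 11.81, 12.01 and 11.93 in stress (-0.29 ± 0.081). Its second probe set differed by -0.16. Atp5po, a stalk subunit, differed by -0.31 ± 0.10. Without stress animal 3 the median of the list was -0.035.

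Iscu, the scaffold on which mitochondria build iron-sulphur clusters, was at 9.83, 9.65 and 9.75 with imipramine and at 10.03, 10.13 and 10.23 in stress (-0.39 ± 0.091; adjusted p = 0.369). Its mean was 10.03 with fluoxetine, 9.97 with tianeptine, 10.22 with agomelatine and 10.09 in controls, so the imipramine mean was the lowest of the 6 groups. Its promoter, chr12:48518647-48518946 on the minus strand of GRCr8 (RefSeq), is printed as the other one of the 24 genes with the full element TGACGTCA, in capitals at position -24.
Iscu: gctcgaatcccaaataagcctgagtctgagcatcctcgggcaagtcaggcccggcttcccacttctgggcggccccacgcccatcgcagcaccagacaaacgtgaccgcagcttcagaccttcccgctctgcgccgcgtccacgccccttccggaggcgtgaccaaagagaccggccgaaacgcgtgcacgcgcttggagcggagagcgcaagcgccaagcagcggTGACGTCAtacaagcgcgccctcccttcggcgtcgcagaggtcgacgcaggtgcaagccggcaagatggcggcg
The other genes named from this assembly differed without overlap: Nubp2 and Ciao3 of the cytosolic machinery by -0.23 ± 0.068 and -0.22 ± 0.068, and Glrx5, the mitochondrial glutaredoxin, by -0.25 ± 0.10. Glrx5 was at 9.32, 9.44 and 9.49 with imipramine and at 9.54, 9.56 and 9.89 in stress, and its difference was -0.13 without stress animal 3. Over the whole list 11 of 19 measured genes lay below 0 with a median of -0.012 (0.033 with equal array medians).

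Enzymes that supply and build N-glycans lay lower, with 30 of 39 below 0 and a median of -0.062 (-0.017 with equal array medians). Pmm1, a phosphomannomutase that also hydrolyses glucose bisphosphate in brain, was at 9.78, 9.73 and 9.63 with imipramine and at 9.98, 10.14 and 10.25 in stress (-0.41 ± 0.083; 95% interval -0.58 to -0.23; adjusted p = 0.330). A second Pmm1 probe set differed by -0.31. The mean of the chosen probe set was 9.99 with fluoxetine, 9.88 with tianeptine, 10.02 with agomelatine and 9.92 in controls, above all 3 imipramine values. Dolk, which makes the lipid carrier of the glycan, was at 9.08, 9.05 and 8.98 with imipramine and at 9.19, 9.30 and 9.35 in stress (-0.24 ± 0.074).

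Ubiquitin-specific proteases, which remove ubiquitin, stood on both sides. Of 38 measured, 20 lay above 0 with a median of 0.007. At an unadjusted p under 0.05, 3 were higher and 2 lower (3.3% and 6.7% of all tested genes). Usp15, which stabilises receptors of TGF-beta signalling, was at 10.05, 10.19 and 10.08 with imipramine and at 9.79, 9.82 and 9.79 in stress (0.31 ± 0.066; 95% interval 0.17 to 0.44; adjusted p = 0.330). Its mean was 9.85 with fluoxetine, 9.94 with tianeptine, 9.98 with agomelatine and 9.78 in controls. Usp14, which trims ubiquitin at the proteasome, was at 11.39, 11.65 and 11.49 with imipramine and at 11.18, 11.20 and 11.15 in stress (0.33 ± 0.079; adjusted p = 0.371). Usp20 and Usp5, which takes apart free ubiquitin chains, differed by -0.29 ± 0.074 and -0.21 ± 0.062. All 4 were without overlap. Of 40 proteasome subunits 31 lay below 0 with a median of -0.041 (0.004 with equal array medians). Psme1, of the activator that interferon induces, differed by -0.28 ± 0.091 and by -0.081 on a second probe set, and Psmd6, of the regulatory cap, by 0.19 ± 0.064.

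Lysosomal genes lay mostly lower, with 41 of 48 measured below 0 and a median of -0.072 (-0.027 with equal array medians). At an unadjusted p under 0.05, 2 were higher and 2 lower (3.3% and 6.7% of all tested genes). Without overlap 11 were lower and 2 higher (12.6% and 7.16% of all tested genes). Ctsf, a cysteine protease, was at 9.46, 9.40 and 9.42 with imipramine and at 9.49, 9.72 and 9.85 in stress (-0.26 ± 0.088). Pla2g15, a lysosomal phospholipase that cationic amphiphilic drugs are known to inhibit, was at 8.16, 8.18 and 8.11 with imipramine and at 8.36, 8.20 and 8.66 in stress (-0.26 ± 0.10, and -0.13 without stress animal 3). Smpd1, acid sphingomyelinase, which tricyclics are known to displace from the membrane, differed by -0.16 (95% interval -0.34 to 0.020) with overlap. Atp6v1d, a subunit of the proton pump, was 0.21 ± 0.074 higher, at 11.87, 11.96 and 12.02 with imipramine and at 11.75, 11.71 and 11.75 in stress. Of 21 genes of cholesterol synthesis and uptake 13 lay below 0 with a median of -0.053 (-0.008 with equal array medians). Tm7sf2 and Dhcr7, reductases of the last steps, differed by -0.28 ± 0.084 and -0.19 ± 0.075, both without overlap.

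Heat shock and unfolded protein genes had members on both sides, with 20 of 32 below 0 and a median of -0.010 (0.035 with equal array medians), and 8 were higher without overlap and 2 lower (7.16% and 12.6% of all tested genes). The mitochondrial chaperone pair differed in opposite directions in value. Hspd1 was at 10.82, 10.997 and 10.80 with imipramine and at 10.70, 10.53 and 10.65 in stress (0.24 ± 0.089), and its other probe set differed by 0.23. Hspe1, its cochaperone, was at 10.19, 10.27 and 10.23 with imipramine and at 10.38, 10.30 and 10.43 in stress (-0.14 ± 0.062). Erlec1, a lectin of the endoplasmic reticulum that hands misfolded glycoproteins to degradation, was at 10.74, 10.97 and 10.89 with imipramine and at 10.60, 10.44 and 10.52 in stress (0.35 ± 0.089).

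**Figure D4:**
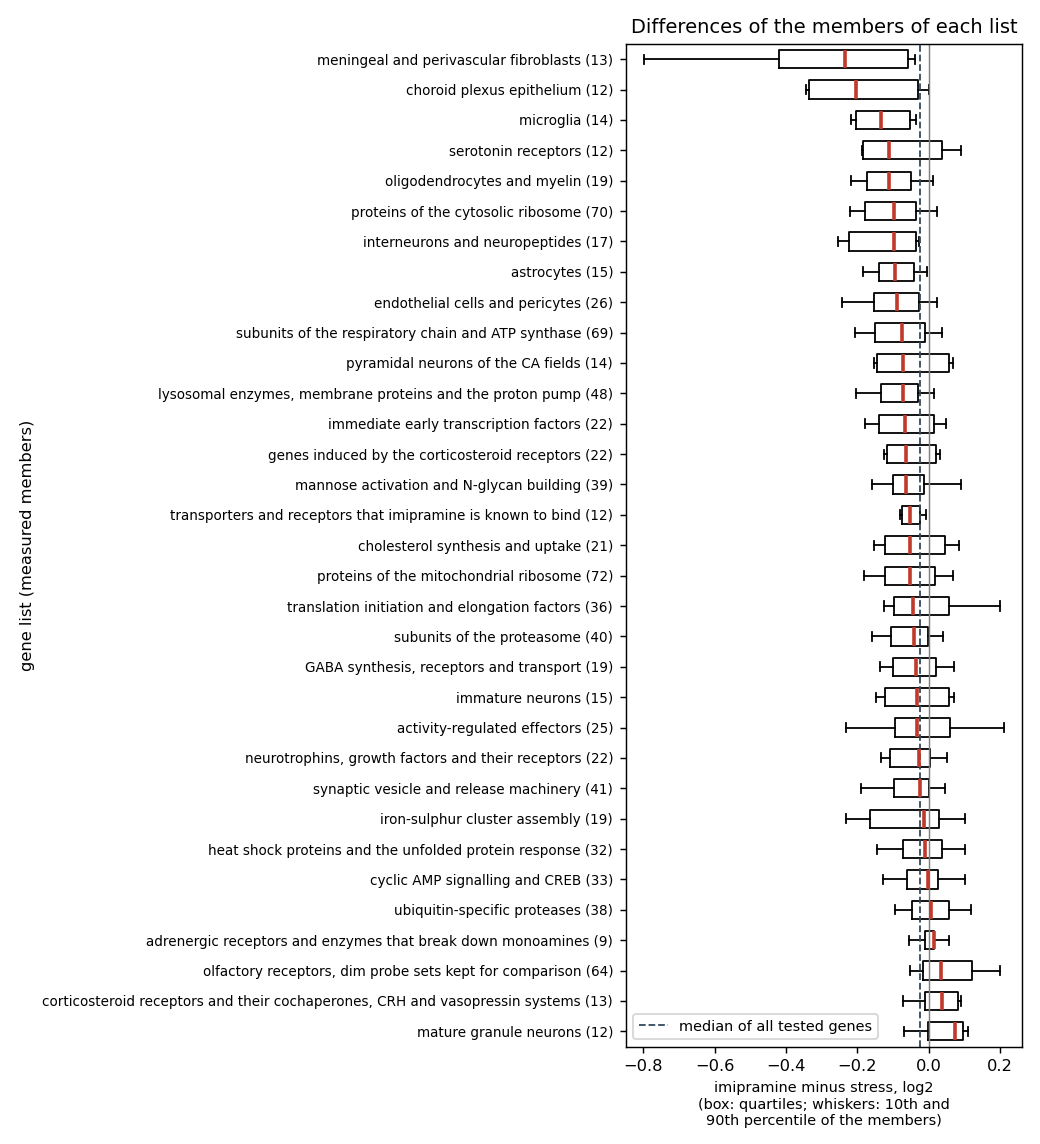
Differences, imipramine minus stress, of the measured members of each of 33 lists on the log2 scale. Red lines are list medians, boxes quartiles, whiskers the 10th and 90th percentile of the members, and the dashed line the median of all tested genes (-0.023). Lists of meningeal and choroid plexus markers lie lowest and that of mature granule neurons highest.

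Synaptic genes differed by little as groups. Of 41 genes of synaptic vesicles and release 30 lay below 0 with a median of -0.024 (0.021 with equal array medians). At an unadjusted p under 0.05, 3 were lower and none higher (6.7% and 3.3% of all tested genes). Syngr1, a vesicle membrane protein, was at 11.19, 11.16 and 11.13 with imipramine and at 11.29, 11.34 and 11.51 in stress (-0.22 ± 0.067). Lgi1, secreted by neurons to anchor AMPA receptors across the synapse, was at 12.86, 12.90 and 12.91 with imipramine and at 12.77, 12.66 and 12.66 in stress (0.19 ± 0.048). For the 19 genes of GABA signalling the median was -0.035 (0.010 with equal array medians and 0.018 without stress animal 3). Gabra4, a receptor subunit of granule neurons, was at 12.23, 12.30 and 12.22 with imipramine and at 12.12, 12.05 and 11.84 in stress (0.24 ± 0.081). Slc6a11, the astrocytic GABA transporter, differed by -0.19 ± 0.080. Both were without overlap, and without stress animal 3 the differences were 0.16 for Gabra4 and -0.10 for Slc6a11.

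The other 6 of the 12 lower genes were Rab40c (-0.31 ± 0.070), Fam20c, a kinase of secreted proteins (-0.32 ± 0.080), Zfp777 (-0.34 ± 0.086), Bsdc1 (-0.28 ± 0.073), Usp20 named above and Pcyox1l (-0.28 ± 0.074). Fam20c was at 9.04, 9.01 and 9.06 with imipramine and at 9.20, 9.33 and 9.54 in stress. Among the higher genes Fancd2osl1 had the largest difference, at 9.65, 9.24 and 9.49 with imipramine and at 8.58, 8.94 and 9.13 in stress (0.58 ± 0.13). Its means of 9.55 with fluoxetine, 9.46 with tianeptine, 9.54 with agomelatine and 9.35 in controls all lay above the stress mean, as the imipramine mean did. Spc25, part of the kinetochore complex of dividing cells, was at 7.45, 7.36 and 7.52 with imipramine and at 7.21, 6.96 and 6.87 in stress (0.43 ± 0.10), and 2 of these values lie below the filter level. Micu3, which raises mitochondrial calcium uptake in neurons, was at 9.99, 10.40 and 10.09 with imipramine and at 9.64, 9.85 and 9.71 in stress (0.43 ± 0.11). Cyria, a brake on Rac signalling to actin, was at 12.15, 12.14 and 12.16 with imipramine and at 11.92, 11.89 and 11.89 in stress (0.25 ± 0.056). Rock2, a kinase of the actin cytoskeleton, differed by 0.16 ± 0.043, Tmem30a, a subunit of phospholipid flippases, by 0.21 ± 0.048 and Tmem69 by 0.30 ± 0.072. The 12 higher genes had a median genomic length of 39.7 kb and the 12 lower ones of 14.03 kb.

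Markers of the cell types a dentate gyrus sample can hold were read next. In bulk tissue fewer cells of a type and less RNA per cell cannot be told apart. Of 12 measured markers of mature granule neurons 9 lay above 0 with a median of 0.073, which was 0.118 with equal array medians, 0.042 without stress animal 2 and 0.046 without stress animal 3. The only one of the 12 without overlap was lower, Gabrd (-0.12), a receptor subunit outside the synapse. Calb1, their calcium-binding protein, was at 10.99, 10.83 and 10.79 with imipramine and at 10.81, 10.57 and 10.69 in stress (0.18 ± 0.082, and 0.11 without stress animal 2). Prox1, their identity factor, differed by 0.065 (95% interval -0.12 to 0.25). Markers of immature neurons had a median of -0.033 (0.012 with equal array medians and 0.046 without stress animal 3). Dcx, the microtubule protein of migrating neurons, was at 9.29, 9.25 and 9.20 with imipramine and at 9.33, 9.05 and 9.62 in stress. Sox11, a factor of young neurons, differed by 0.068 (95% interval -0.15 to 0.28). Bhlhe22 was the only one of 15 with an unadjusted p under 0.05 (0.17 ± 0.079).

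Of 17 interneuron markers 16 lay below 0 with a median of -0.096, but the list score was -0.107, -0.076 and -0.097 with imipramine and -0.057, -0.101 and 0.257 in stress. Without stress animal 3 the median was 0.015. Npy, the peptide of hilar interneurons, was at 10.30, 10.35 and 10.28 with imipramine and at 10.45, 10.60 and 10.87 in stress (-0.33 ± 0.12, and -0.21 without stress animal 3), and Nos1, which makes nitric oxide, at 8.75, 8.66 and 8.61 with imipramine and at 8.82, 8.97 and 9.17 in stress (-0.31 ± 0.094). Both were without overlap. Slc32a1, the vesicular GABA transporter, was at 8.74, 8.95 and 8.87 with imipramine and at 8.92, 8.93 and 9.40 in stress, with overlap, and its difference of -0.23 was -0.073 without stress animal 3. The score of markers of CA pyramidal neurons was -0.035, -0.116 and -0.081 with imipramine and -0.107, -0.118 and 0.201 in stress, and their median of -0.073 was 0.077 without stress animal 3. How far tissue beside the dentate gyrus in that animal bears on the neuronal values was not tested.

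Glial and vascular markers had medians below 0 also after a further quantile normalisation and whichever animal was left out. They were below 0 with equal array medians too, a setting that adds the same amount to every difference. For astrocytes 13 of 15 lay below 0 with a median of -0.094, for oligodendrocytes 16 of 19 with -0.112, for microglia 13 of 14 with -0.133, and for endothelial cells and pericytes 20 of 26 with -0.089. Over these 4 lists 11 members were lower at an unadjusted p under 0.05 and none higher, against 6.7% and 3.3% of all tested genes. The vascular median was -0.035 without stress animal 1, with 16 of 26 below 0. Agt, the angiotensinogen of astrocytes, was at 10.93, 10.97 and 10.70 with imipramine and at 11.15, 11.05 and 11.26 in stress (-0.29 ± 0.083). Mlc1 and Aldh1l1, also of astrocytes, differed by -0.20 ± 0.064 and -0.18 ± 0.062, while Gfap, their intermediate filament, differed by -0.12 (95% interval -0.39 to 0.15). Cnp, a myelin enzyme, was at 10.95, 10.90 and 10.96 with imipramine and at 11.24, 11.13 and 11.07 in stress (-0.21 ± 0.075). Tf, the transferrin of oligodendrocytes and of choroid plexus, differed by -0.41 ± 0.18 and Mbp, the basic protein of myelin, by -0.11 with overlap. C1qa, the complement gene of microglia, was at 8.84, 8.53 and 8.67 with imipramine and at 8.99, 9.17 and 9.30 in stress (-0.48 ± 0.16). Itgam, the microglial integrin, was at 7.25, 6.67 and 7.09 with imipramine and at 7.46, 7.28 and 7.92 in stress. Aif1, which encodes Iba1, differed by -0.11 with overlap. Cldn5, of the endothelial tight junction, was at 8.53, 8.53 and 8.49 with imipramine and at 8.76, 8.86 and 8.82 in stress (-0.30 ± 0.082), and Itm2a differed by -0.28 ± 0.12. Of 10 neural stem cell genes 7 lay below 0 with a median of -0.079, and their score was -0.148, 0.0739 and -0.0541 with imipramine and 0.131, -0.00772 and 0.032 in stress, with overlap. Thrsp was the only one of the 10 without overlap, at 9.49, 9.68 and 9.42 with imipramine and at 9.96, 9.97 and 10.24 in stress (-0.53 ± 0.14).

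Marker lists of choroid plexus and meninges had the lowest medians of the described lists with all animals, and not without stress animal 1. For choroid plexus the median was -0.203, and -0.096 without stress animal 1. The score was -0.208, -0.199 and -0.272 with imipramine and 0.491, -0.205 and -0.109 in stress. For meningeal and perivascular fibroblasts it was -0.235, -0.124 and -0.148 with imipramine and 0.492, -0.075 and 0.019 in stress, and the median of -0.236 was -0.110 without stress animal 1. Ptgds, the prostaglandin D synthase of the meninges, was at 9.96, 10.35 and 10.09 with imipramine and at 12.10, 10.68 and 10.52 in stress, and its difference of -0.97 ± 0.38 was -0.47 without stress animal 1. Dcn, the decorin of fibroblasts, was at 9.09, 9.11 and 8.90 with imipramine and at 9.90, 9.08 and 10.64 in stress, and its difference of -0.84 ± 0.40 was -0.45 without stress animal 3. Vtn, of pericytes, was at 8.20, 8.57 and 8.26 with imipramine and at 9.18, 8.46 and 8.53 in stress, and its difference of -0.37 was -0.14 without stress animal 1. The part of these tissues in the other differences was not tested. Olfactory receptors, a list of mostly dim probe sets kept for comparison, lay above 0 for 42 of 64 measured genes (median 0.034), and the 2 left by a filter at the 50th percentile had a median of -0.013.

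**Figure D5:**
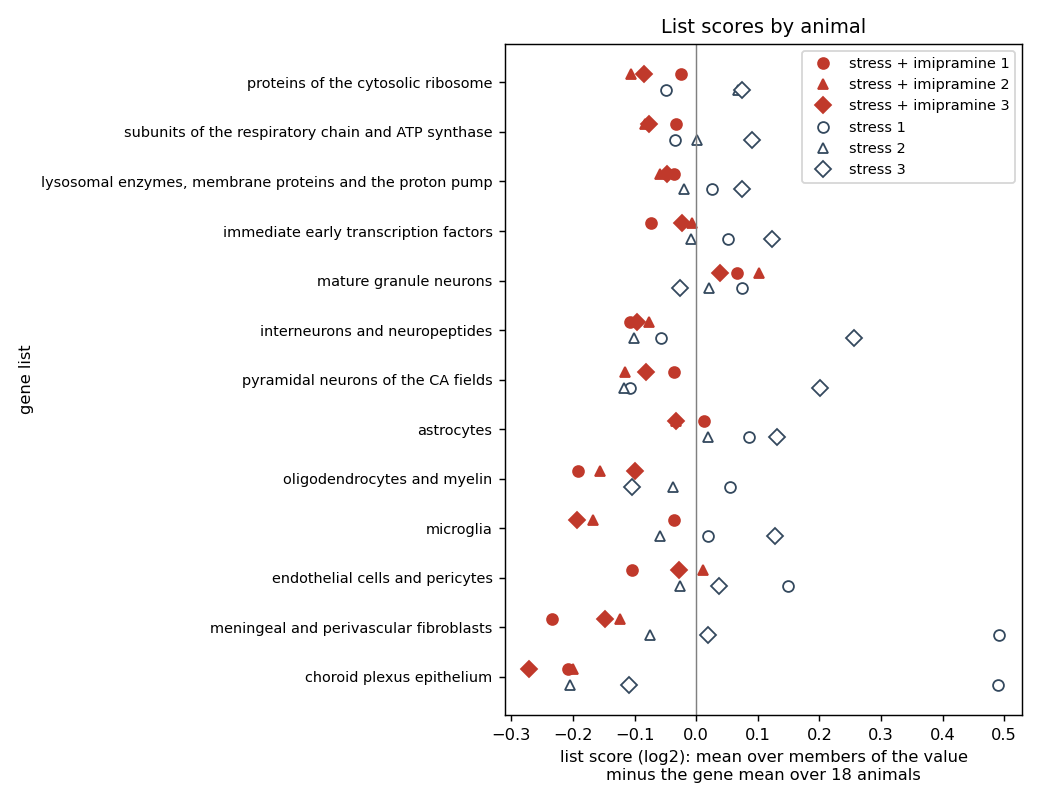
List score of each animal on the log2 scale, the average of the members after each gene is set to its own average across the 18 animals. Red filled symbols are imipramine animals and open symbols stress animals, with circle, triangle and diamond for replicates 1, 2 and 3. Stress animal 1 stands apart at 0.491 for choroid plexus and 0.492 for meninges, and stress animal 3 at 0.257 for interneurons and 0.201 for CA pyramidal neurons.

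Imipramine was set directly against fluoxetine and tianeptine, both given at the same dose and for the same time. No gene passed the test against fluoxetine (0 of 10804, 0%; smallest adjusted p = 0.269; 1191 genes at an unadjusted p under 0.05, 500 higher, 4.63%, and 691 lower, 6.4%). The animals of both groups did not overlap for 20.3% of genes, 7.79% higher and 12.5% lower, and 57.1% lay below 0. None passed against tianeptine (0 of 10804, 0%; smallest adjusted p = 0.789; 664 genes, 364 higher, 3.37%, and 300 lower, 2.78%). Against tianeptine 15.5% did not overlap, 7.78% higher and 7.77% lower, and 56% lay below 0. Agomelatine was given at another dose, so its levels stand beside the others without a test. Fluoxetine is a selective inhibitor of serotonin reuptake, and tianeptine is built on a tricyclic frame like imipramine but is not a reuptake inhibitor. These comparisons share the imipramine animals with the one above, so the genes chosen there are given as values only. Values for the 24 genes plotted by animal follow. For the 12 lower ones the differences ran from -0.29 to -0.043 against fluoxetine and from -0.23 to 0.076 against tianeptine. For the 12 higher ones they ran from -0.085 to 0.31 against fluoxetine and from -0.0030 to 0.26 against tianeptine. For Dusp1 the difference was -0.043 against fluoxetine (95% interval -0.28 to 0.19) and 0.076 against tianeptine (-0.16 to 0.31), and both intervals hold 0. For Usp15 it was 0.26 (0.12 to 0.40) and 0.17 (0.031 to 0.31), with adjusted p of 0.326 and 0.789 in limma's fit. For Iscu it was -0.29 against fluoxetine and -0.23 against tianeptine, with adjusted p of 0.326 and 0.789. The median over the ribosomal list was -0.108 against fluoxetine and -0.069 against tianeptine, and over the microglial list -0.144 and -0.276. The ribosomal list score was -0.025, -0.106 and -0.084 with imipramine, 0.123, 0.117 and -0.162 with fluoxetine and -0.015, -0.080 and 0.097 with tianeptine. The microglial score was -0.037, -0.168 and -0.193 with imipramine, 0.019, -0.086 and 0.159 with fluoxetine and 0.234, -0.120 and 0.468 with tianeptine. In all these comparisons the scores overlapped.

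Against untreated controls 2 of 10804 genes passed (0.0185%), H1f4 and Rpl39, both lower with imipramine (limma, adjusted p = 0.0314 each). They were named after their values were seen. At an unadjusted p under 0.05, 4.95% of genes were higher and 3.32% lower than in controls, 19.3% did not overlap (9.14% higher, 10.1% lower), and 53.8% lay below 0. H1f4, a linker histone, was at 10.52, 10.52 and 10.54 with imipramine, against a control mean of 10.89 ± 0.053, a difference of -0.36. Rpl39, a ribosomal protein, was at 11.83, 11.80 and 11.77 with imipramine, against a control mean of 12.16 ± 0.047, a difference of -0.36. From stress alone imipramine differed by less, -0.12 to -0.096 for H1f4 and -0.15 to -0.020 for Rpl39 whichever animal was left out. Both calls depended on the control arrays, each animal of which was run on 2: with the first arrays alone no gene passed, and with the repeat arrays alone 187 did. They were lost when any 1 imipramine animal was left out. Usp15 differed from control by 0.33 (limma, adjusted p = 0.203) and Dusp1 by -0.12 (adjusted p = 0.855). The ribosomal list had a median of -0.070 against control and the respiratory chain -0.033, and in both the list scores of the groups overlapped.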

How the data were processed

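Dentate gyrus RNA of 18 animals was hybridised to 21 Affymetrix Gene ST arrays, 3 a group; control animals had 2 arrays each, averaged here. Per the submitters' processing notes, which name RMA and Affymetrix Expression Console 1.2, the deposited values are the authors' log2 expression values. RMA removes background and equalises array distributions, so a shift of all genes is partly removed. Probe sets were named from the platform annotation: 15310 of 29214 had 1 gene symbol, 323 several and 13581 none. Per gene, the probe set with the highest mean was kept, above the 25th percentile of the mean. Groups were fitted over all 18 animals with limma 3.58.1 in R 4.3.3 (lmFit, eBayes with trend), with Benjamini-Hochberg adjustment over 10804 genes and a threshold of 0.05. The script was tested on simulated data. Named genes are the 12 with the lowest p in each direction among those without overlap, up to 4 members a list with the lowest p, panel genes and markers; probe sets without a name and genes called against control were added after their values were seen. The members and lists were chosen with earlier results of these data known. The labels give no batch. The labels call the samples biological replicates, apart from the repeat control arrays, and the number of arrays limits the precision. Same-numbered imipramine and stress animals correlated at -0.116, -0.166 and -0.076 in their deviations from the group mean. Deviations from a mean of 3 animals constrain each other, so these values cannot show whether the numbers pair animals. Promoters came from RefSeq (GRCr8).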

Additional observations from a re-analysis of the deposited data

How the results depend on the processing

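In the fit over genes, none passed between imipramine and stress in any of the settings tried except array weights, which called 26 genes (12 higher, 14 lower); over all probe sets 20 passed. With the replicate number as a block 0 genes passed (smallest adjusted p = 0.458, 979 genes at an unadjusted p under 0.05, against 1081 without the block). Whether the numbers pair the animals cannot be told. Without 1 animal, 0 genes passed each time. Array weights also called 486 genes against fluoxetine (149 higher, 337 lower) and 99 against control (74 higher, 25 lower). In fits of 2 groups alone, 1 gene passed against tianeptine (C3, -0.95) and 5 against control. The 2 calls against control became 0 with each control array as its own sample and the animal as a random block, with the replicate block, without the trend, with equal array medians, over all probe sets, with the first control arrays alone and without any 1 imipramine animal (0 to 0), and 187 with the repeat control arrays alone; the cause was not tested.

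Against 20 probe sets called over all probe sets, settings added after seeing the data gave 2 in the fit of 2 groups (1 of them named), 76 with array weights (22 named), 4 without the trend, 20 without the agomelatine group (1 named) and 0 to 25 without 1 animal.

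With equal array medians the list medians were 0.043 for cyclic AMP genes, 0.013 for activity effectors, 0.082 for stress axis genes, -0.0063 for the mitochondrial ribosome, 0.0020 for translation factors, 0.033 for iron-sulphur assembly, -0.017 for N-glycan enzymes, 0.052 for ubiquitin-specific proteases, -0.027 for lysosomal genes, 0.035 for heat shock genes, 0.118 for granule neuron markers and -0.049 for astrocyte markers. Ubiquitin-specific proteases had 0.030 after a further quantile normalisation, GABA genes 0.021 with array weights, and at a filter of the 50th percentile stress axis genes had 0.0050 and olfactory receptors -0.013. Without 1 animal, list medians ran from -0.011 to 0.053 for stress axis genes, -0.057 to 0.010 for iron-sulphur assembly, -0.034 to -0.0067 for heat shock genes, -0.075 to 0.073 for adrenergic and monoamine genes, -0.085 to -0.0086 for corticosteroid-responsive genes, -0.031 to 0.011 for cyclic AMP genes, -0.096 to -0.011 for immediate early factors, -0.066 to -0.016 for the mitochondrial ribosome, -0.066 to 0.018 for GABA genes, -0.069 to 0.046 for immature neuron markers and -0.107 to 0.077 for CA pyramidal markers. Differences of single genes that turned sign without 1 animal ran from -0.23 to 0.055 for Dcx, -0.062 to 0.17 for Fkbp5, -0.035 to 0.070 for Htr1a, -0.020 to 0.048 for Nr3c1, -0.016 to 0.11 for Prox1 and -0.025 to 0.14 for Sox11, and Ntrk2 was 0.011 with equal array medians. Equal array medians added the same amount to every difference, and the median of all tested genes was then 0.022. The cause of the other changes was not tested. The signal over background of single probe sets was not in the values used here.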

Other observations

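The 11 lists outside the 33 plotted, with 205 measured members, had medians of -0.081 to -0.0090. At an unadjusted p under 0.05, 4 members were higher and 12 lower with imipramine (3.3% and 6.7% of all tested genes). These lists hold among others synaptic adhesion, glutamate receptors, potassium channels, clock genes, proliferation and inflammation. They also hold the neural stem cell genes and MAP kinase phosphatases already described above. Of 10 MAP kinase phosphatases, which end MAP kinase signalling, 7 lay below 0 with a median of -0.081, and 3 were lower at an unadjusted p under 0.05 and none higher. None of the 17 measured clock genes had an unadjusted p under 0.05.

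Differences from stress varied with the genomic length of a gene. The median difference was -0.036 among the 20% of genes with the shortest span and -0.0070 among the 20% with the longest. Genes lower with imipramine without overlap made up 15.3% of the shortest genes and 7.87% of the longest, and higher ones 5.97% and 7.92%. By mean level, the median was 0.0087 among the dimmest 20% and -0.050 among the middle 20%. These are descriptions across genes, which are not independent, and their cause was not tested.

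Outside the block of neighbouring identifiers, 4 unnamed probe sets passed between imipramine and stress. Probe set 10701332 was at 8.91, 8.91 and 8.69 with imipramine and at 10.01, 9.83 and 9.32 in stress, a difference of -0.88. The others differed by -0.67 (10700441), 0.63 (10700850) and 0.69 (10788070). All 4 were without overlap, and they were picked out after their values were seen. For 10700850 and 10788070 the adjusted p was 0.0465 and 0.0461 (limma over all probe sets). That adjustment counted the 10 identical probe sets of the block as separate tests.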
